A study of Homo sapiens with 6 samples.

Results

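Chemokines are small secreted or membrane-anchored proteins that draw leukocytes towards their source, and 10 of their genes are described here in H441, an established human lung adenocarcinoma cell line. Cells were transfected by lipid reagent either with siRNA targeting ETS2, a transcription factor of the ETS family, or with scrambled control siRNA, and RNA was isolated 48 h after transfection. The 3 arrays of each group come from separate transfections, per the labels, so p-values measure the spread between transfections of 1 cell line. Both groups were transfected with siRNA, no untransfected cells were analysed here, and 1 ETS2 siRNA pool was compared with 1 control. The comparison asks which transcripts differ once ETS2 is lowered.

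The 10 genes, of 18417 genes measured, were CXCL1, CXCL2, CXCL3, CXCL5, CXCL8, CXCL10, CXCL16, CCL2, CCL20 and CX3CL1. Their names were listed with earlier results of these arrays known, and each gene's probe was to be selected on its mean level over all 6 arrays, the brightest being taken. Each gene turned out to have 1 probe with a single gene symbol, so the brightest was also the only one. Levels are deposited RMA values on the log2 scale, and differences are ETS2 siRNA minus control on that scale. A level counts as background here when it lies under a floor of 6.67, the 95th percentile of the mean levels of 341 olfactory receptor genes, which epithelial cells are not expected to transcribe at a high level.

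Chemokines are named for the spacing of their first cysteines. CXCL1, CXCL2, CXCL3, CXCL5 and CXCL8 carry a glutamate-leucine-arginine motif ahead of those cysteines and attract neutrophils, mainly through the receptor CXCR2, and CXCL8 also through CXCR1. CXCL10 is induced by interferons and recruits T cells through CXCR3, CCL2 recruits monocytes through CCR2, and CCL20 attracts CCR6-bearing lymphocytes and dendritic cells to mucosal surfaces. CXCL16 and CX3CL1 are made as transmembrane proteins and are released by the metalloproteases ADAM10 and ADAM17. In airway and alveolar epithelium, transcription of many of these genes is driven by NF-kB after stimulation by IL-1, TNF or IL-17.

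The stretches of promoter that carry the NF-kB element are shown because they set the neutrophil chemokines apart from most other promoters by their letters alone. Promoter sequence was taken from RefSeq on GRCh38.p14, whose promoter table matched 7 of the 10 genes. CXCL16, CCL2 and CX3CL1 were not among those matched. Each line gives 120 bases before the annotated start of the gene, 5′ to 3′ on the strand of the gene, except for CXCL10, where the window ends 81 bases before the start. Capitals mark the letters GGAATTTCC on either strand, the core of a classical NF-kB site.
CXCL1, chr4:73869273-73869392, plus strand: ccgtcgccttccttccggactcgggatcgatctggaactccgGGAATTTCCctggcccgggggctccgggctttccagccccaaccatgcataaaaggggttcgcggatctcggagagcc
CXCL2, chr4:74099196-74099315, minus strand: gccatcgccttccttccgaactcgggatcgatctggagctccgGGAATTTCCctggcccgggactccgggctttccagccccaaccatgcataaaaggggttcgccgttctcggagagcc
CXCL3, chr4:74038690-74038809, minus strand: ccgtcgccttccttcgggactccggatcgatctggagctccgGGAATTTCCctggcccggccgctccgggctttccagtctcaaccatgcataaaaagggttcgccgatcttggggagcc
CXCL5, chr4:73998678-73998797, minus strand: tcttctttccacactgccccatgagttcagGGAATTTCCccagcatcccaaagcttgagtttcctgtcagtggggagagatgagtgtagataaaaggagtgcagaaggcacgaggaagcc
CXCL8, chr4:73740449-73740568, plus strand: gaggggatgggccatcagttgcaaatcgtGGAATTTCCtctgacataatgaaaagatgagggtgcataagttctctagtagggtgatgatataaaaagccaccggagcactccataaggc
CXCL10, chr4:76023578-76023697, minus strand: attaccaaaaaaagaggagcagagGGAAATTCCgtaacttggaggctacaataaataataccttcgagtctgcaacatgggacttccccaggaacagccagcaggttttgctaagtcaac
CCL20, chr2:227813722-227813841, plus strand: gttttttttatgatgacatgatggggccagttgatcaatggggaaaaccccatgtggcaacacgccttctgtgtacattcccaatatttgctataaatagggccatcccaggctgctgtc

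Searched over the whole RefSeq window, from 250 bases before to 50 after the start and on both strands, GGAATTTCC was found in 6 of the 7 promoters and in 162 of 35116 promoters of that length (0.461%). It began 78 bases before the start in CXCL1 and CXCL3, 77 in CXCL2, 90 in CXCL5 and 91 in CXCL8, and 176 bases before the start in CXCL10, there on the opposite strand. CCL20 held no match to these letters in this window. The ETS core GGAA was found in 7 of 7 promoters and in 95.5% of all promoters, so it sets none of them apart. It also overlaps the NF-kB letters, which open with GGAA and close with its reverse complement. The longer ETS motif CCGGAAG was found in 10.3% of all promoters and in 1 of the 7, CXCL1, on the opposite strand and beginning 109 bases before the start. These matches are letters in a reference genome, and binding was not measured.

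The printed stretches of CXCL1, CXCL2 and CXCL3 are close copies of each other. CXCL1 and CXCL2 shared 113 of 121 aligned positions (93.4%), CXCL1 and CXCL3 109 of 120 (90.8%), and CXCL2 and CXCL3 108 of 122 (88.5%). CXCL8 shared 46.1% with CXCL1. The coding regions of the 3 genes are also known to be similar, and whether their probes read more than 1 of them was not tested.

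ETS2, the target of the siRNA, stood at 8.87, 8.70 and 8.78 on the ETS2 siRNA arrays and at 9.79, 9.91 and 9.79 on the control arrays, 48.4% of the control level (adjusted p = 0.000254, limma). The arrays ran from 3.21 to 14.51 with gene medians between 8.07 and 8.10. Epithelial and lung markers were present, with 10 of 11 measured above the floor, including NKX2-1 and EPCAM, and SCGB1A1 at background. Of the 11, SFTPB and SLC34A2 fell, with differences of -0.36 and -0.29 (adjusted p = 0.0077 and 0.0120, limma), beside 2.63% of all genes that fell. The summed linear level of the list ran from 66331 to 67043 after ETS2 siRNA and from 67000 to 67769 in control cells. Some markers of other cells also had a group mean above the floor, 6 of 12 for leukocytes, 5 of 9 for fibroblasts and 2 of 7 for endothelium. Those above it included TYROBP (8.13 and 8.10 in ETS2 siRNA and control cells), COL1A1 (9.05 and 8.95), LUM (8.98 and 9.03) and CLDN5 (7.88 and 7.80). Those below it included PTPRC (4.72 and 4.74), DCN (4.34 and 4.36) and CDH5 (6.37 and 6.37). The summed linear level of the leukocyte list ran from 3616 to 3881 after ETS2 siRNA and from 3391 to 3546 in control cells, and that of the endothelial list from 1290 to 1355 after ETS2 siRNA and from 1402 to 1471 in control cells. Both pairs of ranges were separate, with 0 members of either list called, beside 4.91% of all genes. Such a sum weighs bright genes most, here CD68 (11.46 after ETS2 siRNA and 11.29 in control cells) and KDR (9.61 and 9.80). The median difference was 0.0317 over the leukocyte list and -0.0033 over the endothelial list. The fibroblast sums ran from 1554 to 1584 after ETS2 siRNA and from 1546 to 1575 in control cells and overlapped. The part of these shifts in the results was not tested.

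Of the 10 chemokines, 6 had at least 1 group mean above the floor and 4 lay at background in both groups. Those above it were CXCL1, CXCL2, CXCL8, CXCL16, CCL20 and CX3CL1, each on all 6 arrays. Those at background were CXCL3, CXCL10, CCL2 and CXCL5, of which CXCL5 passed the floor on 2 arrays and the others on 0. CCL20, with a mean of 6.88 over all arrays, was the nearest gene inside the floor, and CXCL5, at 6.62, the nearest outside. These levels are what sorted the genes and carry no test. A probe's brightness also reflects its own sequence. This limits the sorting by a floor made from other probes, and the levels of the 10 genes are not ranked as amounts of mRNA.

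After ETS2 siRNA, 3 of the 10 genes fell by limma with Benjamini-Hochberg adjustment over all genes, CXCL2, CXCL16 and CXCL10, and 0 rose. Over all genes, 484 of 18417 fell (2.63%) and 904 changed in either direction (4.91%). As the genes were listed with such results known, their count is not read as an enrichment. The median difference of the 10 was -0.14, beside 0.0033 over all genes, and 9 of the 10 differences were negative. An unadjusted p under 0.05 was reached by 5 of the 10 and by 3408 of all genes (18.5%). In these 3 genes, and in 0 of the other 7, every ETS2 siRNA array lay below every control array, as it did for 2114 of all genes (11.5%). All 3 calls were lost when every probe was tested on its own (adjusted p from 0.0732 to 0.0771, limma). That fit raises the number of tests to 33297 and also draws each variance towards those of the added probes, which changes the p-values themselves. The part of each was not tested. In bulk RNA, fewer cells expressing a gene and less of its RNA per cell cannot be told apart.

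**Figure D1:**
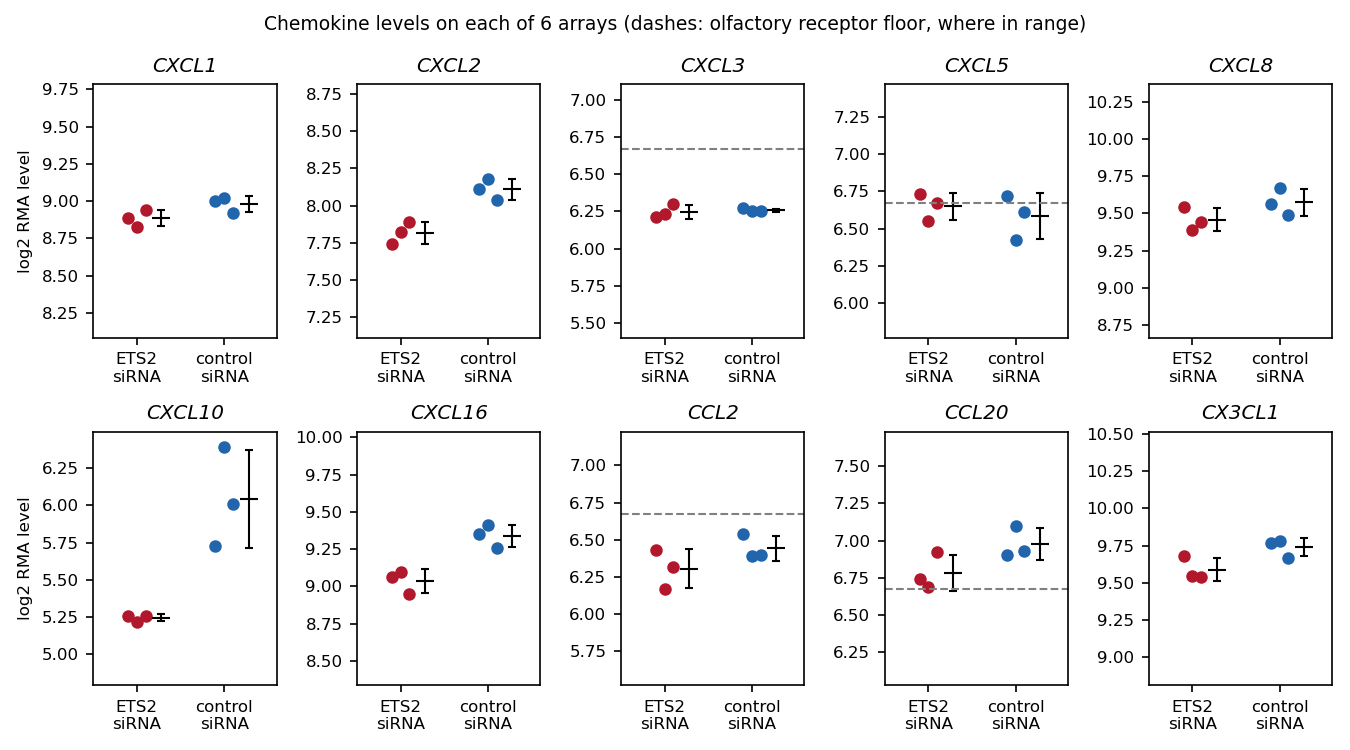
Log2 RMA level (vertical axes, all spanning the same width) of each chemokine on the 3 ETS2 siRNA arrays (red, left) and the 3 control arrays (blue, right), with the mean ± SD of each group in black. The groups are apart for CXCL2, CXCL16 and CXCL10, and the dashed floor of 6.67 lies above CXCL3, CCL2 and CXCL10 (outside the CXCL10 panel), across CXCL5 and at the lower edge of CCL20.

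Among the neutrophil chemokines, CXCL2, also called MIP-2-alpha, read 7.74, 7.82 and 7.89 on the ETS2 siRNA arrays and 8.11, 8.18 and 8.04 on the control arrays. The highest ETS2 siRNA array lay 0.15 below the lowest control array. CXCL2 averaged 7.82 ± 0.08 after ETS2 siRNA and 8.11 ± 0.07 in control cells (SD, n = 3 each), a difference of -0.29 (SE 0.0543, 95% interval -0.42 to -0.17, adjusted p = 0.0221, limma). On the linear scale that is 81.6% of the control level, with an interval from 74.8% to 89.0%. Its difference ranked 205 from the lowest of 18417. The call was kept without control replicate 3 (adjusted p = 0.0420) and lost without any other single array, with adjusted p up to 0.0858, while the difference stayed between -0.33 and -0.26.

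CXCL1, first described as a melanoma growth-stimulating activity, read 8.89, 8.83 and 8.94 after ETS2 siRNA and 9.0, 9.02 and 8.92 in control cells. The highest ETS2 siRNA array passed the lowest control array, so the groups overlapped. Its difference was -0.09 (95% interval -0.20 to 0.01, adjusted p = 0.348, limma), which allows a level from 87.0% to 101.0% of control. CXCL8, or interleukin 8, read 9.54, 9.39 and 9.44 after ETS2 siRNA and 9.56, 9.67 and 9.49 in control cells. Here too the groups overlapped, and the difference of -0.12 (95% interval -0.25 to 0.02, adjusted p = 0.358) did not pass the threshold. For both genes the interval holds 0 as well as a loss larger than the point estimate. With 3 arrays a group, neither a small fall nor no change is excluded for them.

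CXCL3 and CXCL5 were at background and showed no separation. CXCL3 read 6.21, 6.23 and 6.30 after ETS2 siRNA and 6.27, 6.25 and 6.25 in control cells, a difference of -0.01 (95% interval -0.10 to 0.08, adjusted p = 0.938). CXCL5 read 6.73, 6.55 and 6.67 after ETS2 siRNA and 6.72, 6.42 and 6.61 in control cells, and its difference of 0.07 (95% interval -0.12 to 0.25, adjusted p = 0.746) was the only positive one of the 10. At this level the intervals bound the probe signal rather than the mRNA.

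CXCL1, CXCL2 and CXCL3 were also compared within arrays, since they share most of the promoter letters shown above. CXCL2 minus CXCL1 was -1.15, -1.01 and -1.05 after ETS2 siRNA and -0.89, -0.84 and -0.88 in control cells. The 2 sets did not overlap, and the within-array difference was shifted by -0.20 after ETS2 siRNA. CXCL2 minus CXCL3 was shifted by -0.28, also without overlap, although CXCL3 lay at background. The shift of CXCL1 minus CXCL3 was -0.08, with overlap. By a two-sided exact permutation test the p was 0.1 for each of the pairs with CXCL2, the smallest that 3 arrays against 3 can give, and 0.2 for CXCL1 with CXCL3. Adjusted over the 3 pairs these were 0.15, 0.15 and 0.2. With so few arrays this test cannot pass the usual threshold, so it decides neither for nor against unequal movement of the paralogs. The sizes of these differences depend on the probes, and the shifts between groups alone are comparable.

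Of the 2 membrane-anchored chemokines, CXCL16 fell and CX3CL1 did not pass the threshold. CXCL16, the ligand of CXCR6 and a scavenger receptor for oxidised lipoprotein, read 9.06, 9.10 and 8.95 after ETS2 siRNA and 9.35, 9.41 and 9.26 in control cells. Every ETS2 siRNA array lay below every control array, with a gap of 0.16. It averaged 9.04 ± 0.08 after ETS2 siRNA and 9.34 ± 0.08 in control cells (SD, n = 3 each), a difference of -0.30 (SE 0.0561, 95% interval -0.43 to -0.17, adjusted p = 0.0220, limma), to 81.0% of the control level. The call again was kept without control replicate 3 (adjusted p = 0.0382) and lost without any other single array, with adjusted p up to 0.0909.

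CX3CL1, or fractalkine, the ligand of CX3CR1, read 9.68, 9.55 and 9.54 after ETS2 siRNA and 9.77, 9.78 and 9.67 in control cells. The groups met at 9.68 and 9.67. The difference of -0.15 (SE 0.0532, 95% interval -0.27 to -0.03) had an unadjusted p of 0.0221 and an adjusted p of 0.169 by limma, and its interval overlaps that of CXCL16. Whether these genes differed in their response was not tested.

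**Figure D2:**
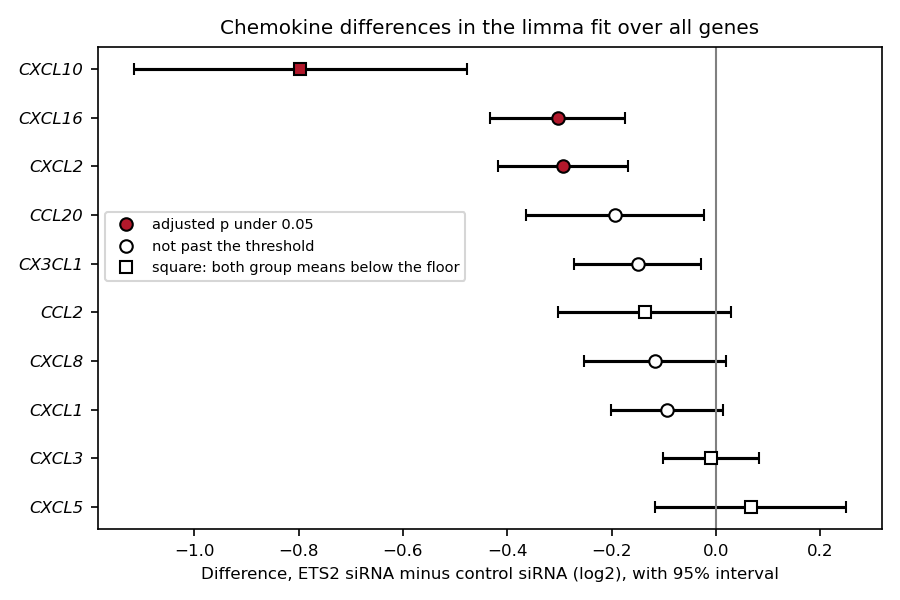
Difference, ETS2 siRNA minus control (log2, horizontal axis), of the 10 chemokines with 95% intervals from limma over all 6 arrays. Filled symbols mark the 3 genes past an adjusted p of 0.05, CXCL10, CXCL16 and CXCL2, and squares mark the 4 genes with both group means below the floor.

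CXCL10 had the lowest difference of the 10, but from a signal at background. It read 5.26, 5.22 and 5.26 after ETS2 siRNA and 5.73, 6.39 and 6.01 in control cells, all below the floor of 6.67. The 3 ETS2 siRNA arrays were almost level and the control arrays were spread, with SDs of 0.0231 and 0.331 (n = 3 each). The lowest control array still lay 0.47 above the highest ETS2 siRNA array. The fit uses 1 variance for both groups, drawn towards that of other genes, so its interval and p do not reflect these unequal SDs. The difference of -0.80 (SE 0.139, 95% interval -1.12 to -0.48, adjusted p = 0.0180, limma) is one of probe signals at background. It is given as the fit has it, and its size is not read as a fold of the mRNA.

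The olfactory receptor genes give the range of differences that background probes showed on these arrays. Their 341 differences ran from -0.32 to 0.27, 0 rose and 1 fell, and 0 were as low as that of CXCL10. Their median SD in control cells was 0.0757, and 0 had a control SD as large as that of CXCL10. On mean level, CXCL10 stood above 73.6% of them. The call of CXCL10 was kept without control replicate 1 (adjusted p = 0.0101) or 2 (0.0125) and lost without control replicate 3 or any of the 3 ETS2 siRNA arrays (up to 0.0811), with differences from -0.95 to -0.62.

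**Figure D3:**
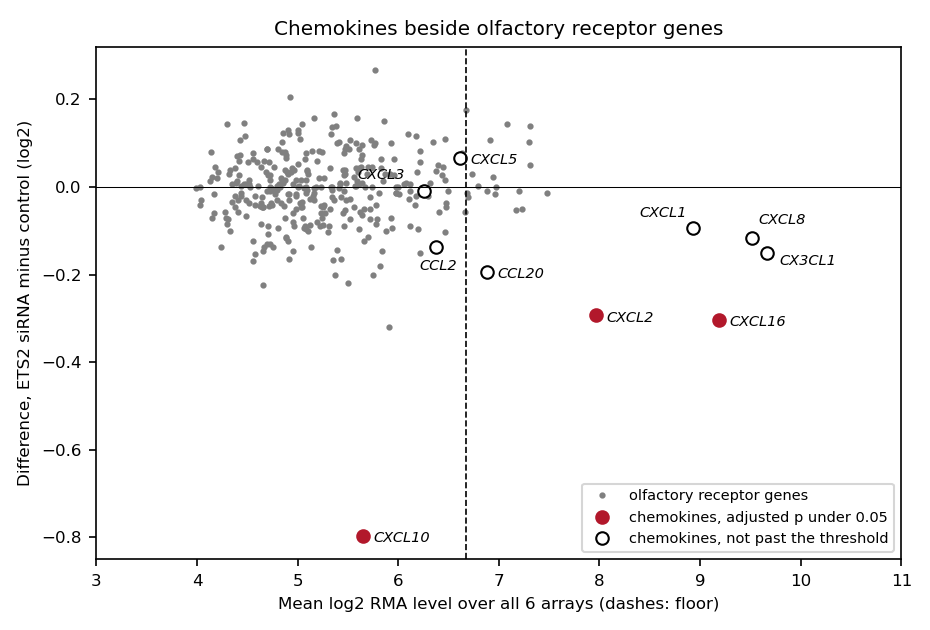
Mean log2 RMA level over all 6 arrays (horizontal axis) against the difference, ETS2 siRNA minus control (log2, vertical axis), for 341 olfactory receptor genes (grey) and the 10 chemokines (circles, red where the adjusted p was under 0.05). CXCL10 lies left of the dashed floor of 6.67 at -0.80, below the olfactory receptor genes, which end at -0.32, while CXCL2 and CXCL16 lie right of the floor.

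The 2 CC chemokines did not pass the threshold. CCL20, or MIP-3-alpha, read 6.74, 6.69 and 6.92 after ETS2 siRNA and 6.90, 7.10 and 6.93 in control cells, overlapping through ETS2 siRNA replicate 3 and control replicate 1. Its difference of -0.19 (SE 0.0744, 95% interval -0.36 to -0.02) had an unadjusted p of 0.0312 and an adjusted p of 0.206. CCL2, or MCP-1, stayed at background with 6.43, 6.17 and 6.32 after ETS2 siRNA and 6.54, 6.39 and 6.40 in control cells, a difference of -0.14 (95% interval -0.30 to 0.03, adjusted p = 0.377). The pooled SD was 0.115 for CCL20 and 0.110 for CCL2, where the median over genes of like level was 0.0874 and 0.0886. It was also above that median for CXCL8 (0.0839 and 0.0531), CX3CL1 (0.07 and 0.051), CXCL16 (0.0766 and 0.0555), CXCL5 (0.125 and 0.0868) and CXCL10 (0.235 and 0.0816).

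The rest of the chemokine family was mostly at background. Of 33 further chemokine genes listed, 29 were measured and 9 had a group mean above the floor, among them CCL28, a mucosal chemokine, and CCL22. CXCL17, a chemokine of mucosal and airway epithelium, was the 1 of the 29 that changed, beside 4.91% of all genes. It read 10.15, 10.04 and 10.13 after ETS2 siRNA and 10.41, 10.28 and 10.39 in control cells, with no overlap. That is a difference of -0.25 (SE 0.0509, adjusted p = 0.0304, limma), to 83.9% of control. The call was kept without control replicate 2 and lost without any other single array (adjusted p up to 0.118). It was also lost when arrays were scaled on ribosomal protein genes (0.0556) or all probes were tested on their own (0.0915). CCL28 had a difference of -0.12 (adjusted p = 0.528) and CCL22 one of 0.05 (adjusted p = 0.768). The median over the 29 was -0.0067.

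Receptors for these chemokines were mostly at background. Of 22 receptor genes listed, 20 were measured, and 4 of these had a group mean above the floor, CXCR3, CCR7, CCR10 and XCR1. XCR1 passed the floor of 6.67 narrowly and in control cells only (6.64 after ETS2 siRNA and 6.69 in control cells). By limma 0 of the 20 changed, with 1 at an unadjusted p under 0.05, beside 4.91% and 18.5% of all genes. CXCR1 and CXCR2, the receptors of the neutrophil chemokines, read means of 4.94 and 4.94 after ETS2 siRNA and 5.00 and 5.00 in control cells. CXCR6, the receptor of CXCL16, read 6.33 after ETS2 siRNA and 6.19 in control cells, and CX3CR1 read 5.32 and 5.28. CXCR4 (difference -0.11, adjusted p = 0.188) and the scavenging receptor ACKR4 (0.10, adjusted p = 0.282) had the smallest p-values, and both lay at background.

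Of 24 listed genes for cytokines, receptors and regulators linked to chemokine induction, 3 fell and 1 rose, beside 4.91% of all genes that changed. Of the 24, 16 had a group mean above the floor. This list, like the others, was drawn up with earlier results of these arrays known, so its count is a description. IL1RAP, the co-receptor that IL-1 signalling requires, read 8.33, 8.39 and 8.30 after ETS2 siRNA and 8.74, 8.87 and 8.79 in control cells, a difference of -0.46 (SE 0.0477, adjusted p = 0.00234, limma). IL6ST, the signalling chain gp130 shared by the IL-6 family, read 11.10, 11.04 and 11.13 after ETS2 siRNA and 11.61 on each control array, a difference of -0.52 (adjusted p = 0.000710). Together with IL6 (-0.46, adjusted p = 0.00509) these falls were kept with any single array left out. IL18, a cytokine of the IL-1 family, rose by 0.23 (adjusted p = 0.0230), a call lost without any 1 of 4 arrays and with all probes tested on their own (0.0728). IL1R1, the IL-1 receptor itself, stood at 10.12 after ETS2 siRNA and 10.20 in control cells and was not called. The median over the 24 was -0.0017.

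Of 21 genes of NF-kB signalling measured, all above the floor, 0 changed by limma, beside 4.91% of all genes. At an unadjusted p under 0.05 there were 4, close to the 18.5% over all genes. The median difference of the 21 was 0.06, and 13 of the 21 differences were positive. IKBKG, the regulatory subunit of the IkB kinase complex, had the smallest p, with a difference of 0.21 (adjusted p = 0.0798), ahead of the adaptor TAB2 (0.12, adjusted p = 0.116). RELA, which encodes the subunit p65, had means of 11.47 after ETS2 siRNA and 11.41 in control cells, and NFKBIA, an inhibitor that NF-kB itself induces, 11.79 and 11.88. These are transcript levels and do not measure the activity of NF-kB.

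**Figure D4:**
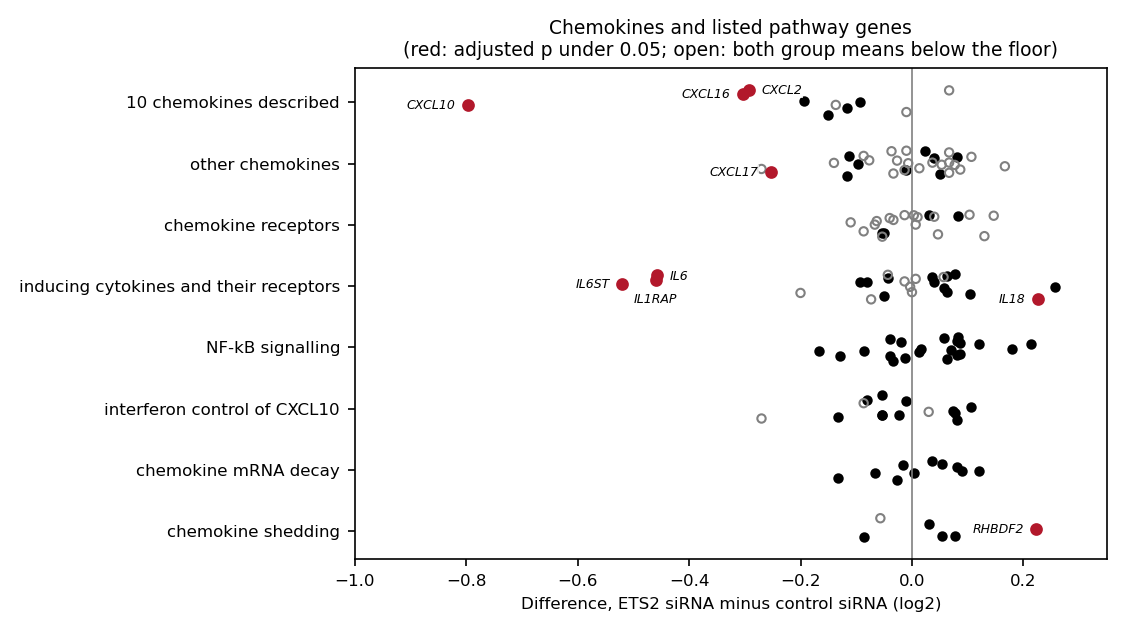
Difference, ETS2 siRNA minus control (log2, horizontal axis), of the 10 chemokines (top row) and of each listed group of related genes, 1 point per gene with vertical scatter added for legibility. Red points mark genes past an adjusted p of 0.05 by limma and open points genes with both group means below the floor, and no gene is red in the rows of the receptors, NF-kB signalling, interferon control and mRNA decay.

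Of genes of the interferon pathway upstream of CXCL10, together with CXCL9 and CXCL11, which interferon also induces and which are counted among the 29 further chemokines too, none was called by limma. Of 14 measured, 11 had a group mean above the floor and 0 changed, beside 4.91% of all genes. An unadjusted p under 0.05 was reached by 1 of the 14, CXCL11, and by 18.5% of all genes. CXCL11, a chemokine induced by interferon and read by the same receptor as CXCL10, lay at background with 5.76, 5.56 and 5.58 after ETS2 siRNA and 5.86, 6.11 and 5.74 in control cells (difference -0.27, adjusted p = 0.167). As for CXCL10, control replicate 2 was the highest of the 6 arrays. CXCL9, the third of these ligands, read 4.68 after ETS2 siRNA and 4.77 in control cells. IRF1 (8.13 and 8.19) and IRF9 (9.52 and 9.53), which act downstream of interferon receptors, had almost equal means in ETS2 siRNA and control cells, and IRF3 differed by 0.08 (adjusted p = 0.293).

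Genes of chemokine mRNA decay and of shedding were all or nearly all above the floor. Of 10 decay genes 0 changed by limma, beside 4.91% of all genes. An unadjusted p under 0.05 was reached by 2 of the 10, beside 18.5% of all genes. The 2 were the decapping enzyme DCP2 (-0.13, adjusted p = 0.0911) and KHSRP, which binds AU-rich elements (0.12, adjusted p = 0.122). ZFP36, or tristetraprolin, which speeds the decay of CXCL2 and CXCL8 mRNA, stood at 9.16 after ETS2 siRNA and 9.18 in control cells. Among 6 shedding genes 1 changed, beside 4.91% of all genes. RHBDF2, a partner that ADAM17 needs to mature, rose by 0.22 (adjusted p = 0.0403), with 8.58, 8.51 and 8.55 after ETS2 siRNA and 8.27, 8.41 and 8.29 in control cells. That call was kept without control replicate 2 and lost without any other single array, when arrays were scaled on ribosomal protein genes (adjusted p = 0.0515) and when all probes were tested on their own (0.1105). ADAM10, at 11.78 after ETS2 siRNA and 11.87 in control cells, and ADAM17, at 10.70 and 10.65, were not called.

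The genes whose profile over the 6 arrays lay closest to each fallen chemokine above the floor were found among 12938 genes with a mean above the floor, by the root mean square distance between gene-centred log2 levels. For CXCL2 they were PSAT1 (distance 0.0224), C4orf33 (0.0227), SNORD44 (0.0249), SNORD78 (0.0339) and THAP5 (0.0362). For CXCL16 they were TLE4 (0.0177), CAPN6 (0.0197), FAM117B (0.0243), TBC1D5 (0.0254) and PFKFB3 (0.0292). CXCL16 was the gene ranked 391 for CXCL2, at 0.0812, CCL20 was ranked 373 and CXCL1 was ranked 1218. The 2 fallen chemokines above the floor were not among each other's nearest profiles. Among the ETS2 siRNA arrays, CXCL2 was highest on replicate 3, where CXCL16 was lowest.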

How the data were processed

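Per the labels' protocols, biotin-labelled cRNA from total RNA of 6 H441 cultures went onto Affymetrix Human Gene arrays. The authors deposited 1 log2 level per probe and array, with 2 decimals. The submitters' processing notes name RMA. It subtracts background, makes the arrays' distributions alike and combines probes, so it compresses differences of dim genes and removes shifts shared by all genes. Its settings and the build behind the probes are not stated in the labels. Precision is limited by there being 3 arrays a group.

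Of 33297 probes, 19460 had 1 gene symbol in the platform annotation, 1754 several and 12083 were unnamed here. The brightest probe per gene gave 18417 genes. They were fitted with limma 3.58.1 in R 4.3.3 (lmFit, eBayes, two-sided, Benjamini-Hochberg over all genes, called under 0.05) and tested on simulated data. Paralogs were compared by exact permutation tests (scipy 1.17.1). The floor is described in the text.

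Named are the 10 members, ETS2, all changed genes of 7 listed pathway groups or the 2 with the smallest p, and the 5 nearest profiles of called members above the floor. Other genes of those groups were chosen after their values were seen. The members and lists were chosen with earlier results of these data known. Same-numbered replicates correlated at 0.177, 0.181 and 0.035 in their deviations from group means, and differently numbered ones at -0.198 to 0.066. These values do not settle whether the numbers pair the arrays. The main fit took no pairs, as the labels describe separate transfections and no batch. A fit with a replicate block, in which the call of CXCL2 was lost, is given below.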

Additional observations from a re-analysis of the deposited data

How the results depend on the processing

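The directions of CXCL2, CXCL16 and CXCL10 held under every alternative in which each was tested. Of 162 recomputed differences of the 10 chemokines, 142 kept their direction and side of the threshold, 18 lost a call and 2 changed sign, both of genes at background: CXCL5 ran from -0.015 without control replicate 2 to 0.135, and CXCL3 from -0.0367 to 0.0083 without ETS2 siRNA replicate 1. With 1 array left out, the number of chemokines called lay between 0 (without any 1 of the ETS2 siRNA arrays) and 2, and the number of genes called between 213 and 735. With all 33297 probes tested on their own, 0 of the 10 were called (adjusted p from 0.0732 to 0.0771 for the 3) and 322 genes; at an unadjusted p under 0.05 the main fit had 5 of the 10, and 18.5% of all genes. The cause was not tested. The count of genes was 1408 or 1397 without genes below the floor, which leaves CXCL10 out and keeps CXCL2 and CXCL16, 1963 with an intensity trend and 1480 with array weights. With the replicate block, 604 genes and 2 of the 10 were called, CXCL2 being lost (adjusted p = 0.0555), as was RHBDF2 (0.0874). The listed pathway genes called numbered 6, and between 3 and 13 under the alternatives. A floor at the 90th percentile of olfactory receptor genes put 9 chemokines above it, and one at the 99th percentile or at the highest of them 5. Signal near background limits what CXCL3, CXCL5, CXCL10, CCL2 and CCL20 can show.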
